A study of Mus musculus with 2 samples.

Results

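Piezo1 (ENSMUSG00000014444) encodes a mechanically gated, calcium-permeable cation channel. The channel opens when the plasma membrane is stretched, so that pressure, flow or pulling forces become calcium entry and then calcium-dependent signalling through calmodulin, calcineurin and calpain. In skin the gene is known from keratinocytes, endothelium and fibroblasts, and its relative Piezo2 is best known as the touch channel of sensory neurons and Merkel cells. Piezo1 was taken by its symbol, as 1 of the 31053 genes counted in both libraries, and all its values are described here by cell type and by library. On build GRCm38, the assembly also called mm10, the gene spans chr8:122481698-122551329 on the minus strand, per RefSeq.

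The data came from single-cell RNA-seq of back skin from 1 control mouse and 1 miR-205 inducible mouse at postnatal day 53, where each mouse gave 1 10x Genomics library. According to the labels, both mice were of strain C57BL/6, carried a K14-H2BGFP allele and were matched for gender, and per the study's methods the pTRE2-miR-205 transgene was made in FVB mice and was switched on by the reverse tetracycline activator under the Krt14 promoter, so that induction is directed to skin epithelium. The inducible mouse was fed doxycycline chow for 4 days from day 49. One field of the labels calls the control untreated and another states that both mice received doxycycline, so the control's feeding cannot be settled here. Live sorted cells were mixed at 3 parts epidermal, 5 parts hair follicle and 2 parts dermal, which sets the share of each cell type and is no measure of the tissue's make-up. There were 3936 control and 3628 induced cells after filtering, with median depths of 12198.5 and 11752.5 unique molecular identifiers (UMIs, each counting 1 captured RNA molecule). The libraries shared 11 cell barcodes, and 10 control and 6 induced cells among those kept carried one.

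With 1 mouse per group there was no replicate and no test between the groups. Each interval below is a 95% interval of counting error only, and differences between mice, sorts or libraries are not in it. A level is the number of Piezo1 UMIs per 1000000 UMIs of a population (CPM), a difference between the libraries is the log2 ratio of induced over control CPM, and it was called only by size, at 1.5-fold or more. These counts tag the 3′ end of each RNA, so levels are compared only for the same gene. The transgene's mature miRNA is not counted by this assay. The annotated transcript at the Mir205 locus, 4631405K08Rik, was at 103 CPM in control and 106 CPM in induced cells, with cluster values on both sides: 27.3 and 54.6 CPM (log2 1.00, 0.77 to 1.24) in the epidermal basal-like cluster 0, and 181 and 112 CPM (log2 −0.69, −0.89 to −0.49) in the bulge stem cell-like cluster 3. Since the transgene need not give this transcript, these counts hold no check of the induction.

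Piezo1 is of interest here as one of the genes that the study's text names as targets of miR-205, from a capture of miRNA and target RNA joined together (CLEAR-CLIP) that is not analysed here. The study describes the captured 3′ UTR site as conserved. It also lists Piezo1 among the genes lowered in bulk RNA-seq of sorted hair follicle stem cells, at an earlier time after induction. That RNA-seq is another assay and is not analysed here either. The miRNA and the matches to its seed found in the longest coding transcript of Piezo1 are shown so that the pairing can be seen. In the mature miRNA the capitals mark the seed (bases 2 to 8), and in both Piezo1 stretches they mark the perfect complement of the seed, ATGAAGG.
miR-205-5p: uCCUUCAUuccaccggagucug
Piezo1, 3′ UTR: gcccaggccctgggcaccgggaATGAAGGa
Piezo1, coding sequence: aaaatcgaagtttcgggagagaATGAAGGc
The miRNA sequence is from RefSeq (chr1:193507503-193507524, minus strand, GRCm38). The Piezo1 stretches are from the longest annotated coding transcript of the gene, ENSMUST00000067252, of 8216 bases, in an annotation on the older build NCBIM37, where the gene was matched by its identifier. Positions are counted from 1 at the 5′ end of that transcript. The UTR match lay at positions 7957 to 7963, began 25 bases after the end of the coding sequence and ended 253 bases before the transcript's 3′ end. It was followed by A, the base that extends a seed match opposite the first base of a miRNA. The other match lay at positions 6094 to 6100, inside the coding sequence (positions 292 to 7932), and was followed by C. The whole 3′ UTR was 284 bases long. Among the first 284 bases of the longest 3′ UTRs of 15561 genes, 2.57% held ATGAAGG and 0.925% held ATGAAGGA on the sense strand. Of the 6 annotated coding transcripts of Piezo1, 4 held the stretch printed as the UTR match. A match of letters is a description and no evidence of binding.

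Piezo1 was detected in many cell types at low counts. There were 1819 Piezo1 UMIs in control and 1620 in induced cells, a level of 36.0 CPM (34.3 to 37.7) and of 35.7 CPM (34.0 to 37.5). In the control library 1213 cells (30.8%) had a UMI and 816 of them had exactly 1. In the induced library 1076 cells (29.7%) had a UMI and 705 had exactly 1. The share of cells with a UMI moved with depth while the level did not: among control cells cut into 4 equal bins by depth, the share went from 17.1% in the shallowest bin to 42.8% in the deepest, and the level was 37.6 and 33.97 CPM. Shares are therefore given with every cell thinned down to 5000 UMIs. Shallower cells (304 in the control and 328 in the induced library) drop out, and the share was 15.1% (13.9 to 16.3) in control and 14.97% (13.8 to 16.2) in induced cells, with a gap of −0.091 percentage points (−1.77 to 1.60). Over all kept cells the log2 ratio was −0.01 (−0.11 to 0.09), an interval that holds 0. With a median-of-ratios size factor in place of the UMI totals it was −0.11, outside that interval. The median log2 ratio of all 14484 genes with at least 20 UMIs was 0.10, and relative to that median Piezo1 stood at −0.11.

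Levels differed widely between cell types. The 25 clusters of the integrated cells, formed without Piezo1 and its companion genes, are called by number and, where fixed markers allowed, by a class name ending in -like. The small endothelial-like cluster 24, led by Robo4, Emcn and Dll4, had the highest level, with 235 CPM (142 to 367) in 7 control cells and 146 CPM (83.5 to 237) in 15 induced cells. These rest on 19 and 16 UMIs. All 6 endothelial markers were raised, but so were Langerhans cell markers such as Cd207, at 709 CPM and 4.18-fold the level in other cells, and their part in the result was not tested. Its level was 3.42-fold that of cluster 3, the bulge stem cell cluster described next, in control and 2.52-fold in induced cells, with log2 intervals of 0.98 to 2.41 and 0.46 to 2.03. Among the 24 clusters with at least 50 cells, cluster 3 and the fibroblast-like cluster 9 led in both libraries.

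Cluster 3 was HF-SC-like, with all 6 bulge stem cell markers (Cd34, Krt24, Krt15, Postn, Lhx2 and Sox9) raised. It had 70.5 CPM (61.7 to 80.1) in control and 59.5 CPM (51.1 to 68.9) in induced cells. The fibroblast-like cluster, which also held cells with Schwann cell markers, had 69.3 CPM (56.7 to 83.8) and 73.4 CPM (61.8 to 86.4). After thinning, 27.0% of control and 22.4% of induced cells of cluster 3 had a Piezo1 UMI, and 30.1% and 31.8% of fibroblast-like cells did. By that share cluster 3 held rank 3 in both libraries. Rank 1 by share in the control library fell to cluster 18, an unnamed cluster with T cell markers of which only 4 control cells were deep enough. Next in level came cluster 11, an unnamed epithelial cluster led by Col4a3, Col4a4, Pthlh and Bdnf, with 63.7 and 49.1 CPM. Cluster 10, epithelial with both hair germ and smooth muscle markers, had 52.2 and 43.1 CPM.

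A broad middle of the order held most of the epidermis and follicle. The macrophage-like cluster 20 had 44.3 CPM in control and 47.3 CPM in induced cells, and the dermal papilla-like cluster 7, the mesenchymal signalling centre of the follicle, had 41.9 and 44.1 CPM. The inner bulge-like cluster 4 had 36.8 and 38.5 CPM and the upper HF-like cluster 5 had 28.5 and 30.5 CPM. In the epidermis the basal-like cluster 0 had 32.0 CPM (28.6 to 35.8) and 36.7 CPM (32.1 to 41.8), and the suprabasal-like cluster 8 had 17.9 CPM (13.6 to 23.0) and 24.5 CPM (19.1 to 30.8). The basal-like level was thus 1.78-fold the suprabasal-like one in control (log2 0.83, 0.44 to 1.27) and 1.49-fold in induced cells (log2 0.58, 0.20 to 0.99). After thinning, the basal-like and suprabasal-like shares were 12.6% and 9.20% in control and 12.8% and 13.01% in induced cells. Their intervals overlapped in both libraries. The unnamed cluster 6, with both suprabasal and upper HF markers raised, had 41.3 CPM in control and 32.8 CPM in induced cells. The gap is thus one of level between clusters 0 and 8, and is not shown for all cells with suprabasal markers.

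The low end held epithelial clusters that share basal keratins with the high ones. Cluster 13, unnamed and led by Wnt3a, Ascl2 and Fzd10, with Krt14 and Krt5 raised, had 14 Piezo1 UMIs in 118 control cells (9.75 CPM, 5.33 to 16.4) and 18 in 108 induced cells (12.5 CPM, 7.41 to 19.8). The level in the basal-like cluster 0 was 3.18-fold higher in control and 2.86-fold higher in induced cells, with log2 intervals of 0.95 to 2.60 and 0.86 to 2.33. Cluster 15, unnamed and led by Sostdc1 and Mycl, had 10.7 CPM in control and 6.75 CPM in induced cells. The median depths of clusters 13 and 15 were between 9094 and 13125.5 UMIs, while that of cluster 0 was 16454.5 in control and 17397 in induced cells. After thinning, the shares were 3.42% and 4.90% in cluster 13, 2.91% and 2.53% in cluster 15 and 12.6% and 12.8% in cluster 0.

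A low reference was taken from immune cells, mainly from cluster 17. Its level was itself among the lowest of all clusters, and some other immune clusters were higher. It is therefore no independent measure of background. The Langerhans or antigen-presenting-like cluster 17, at median depths of 8951.5 and 9592.5 UMIs, had 1 Piezo1 UMI in 52 control cells and 2 in 46 induced cells (2.00 and 4.01 CPM). Free RNA from broken cells gives such UMIs: had all the Krt5 and Krt14 UMIs in cluster 17 been free RNA with each library's own mix, 1.58 and 1.39 Piezo1 UMIs would have come with them. After thinning, 0% of its control cells (up to 7.25%) and 4.44% of its induced cells (0.543 to 15.1) had a UMI. With so few cells these shares bound the reference only loosely. The reference level also depended on the grouping of cells. When cells were put in a class one by one by marker UMIs, the Langerhans or antigen-presenting-like class had 77 control and 80 induced cells. These held 18 and 14 Piezo1 UMIs (21.7 and 16.5 CPM), well above the level of cluster 17. By level, which uses all UMIs, the interval of cluster 17 was 0.0507 to 11.2 CPM in control and 0.485 to 14.5 CPM in induced cells. The intervals of clusters 13, 15, 16, 19, 21, 22 and 23 overlapped it in both libraries, some of them on very few UMIs. That of the basal-like cluster 0 lay above it in both. The T cell-like cluster 22, led by Trdc and Tcrg-C1, had no Piezo1 UMI in 29 control and 28 induced cells, which allows levels of up to 22.8 and 21.1 CPM at 3 counts. The unnamed cluster 18, also with T cell markers, had 4 Piezo1 UMIs in 16 control cells and 12 in 76 induced cells (59.5 and 29.3 CPM). There 0.643 and 2.13 would have come with its keratin UMIs. The macrophage-like cluster had 19 and 21 Piezo1 UMIs, where 4.19 and 0.229 would have come with its keratin UMIs, and it was at 15.1-fold the level of cluster 17 in control (log2 3.92, 1.81 to 9.84) and 9.67-fold in induced cells (log2 3.27, 1.53 to 6.70).

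**Figure D1:**
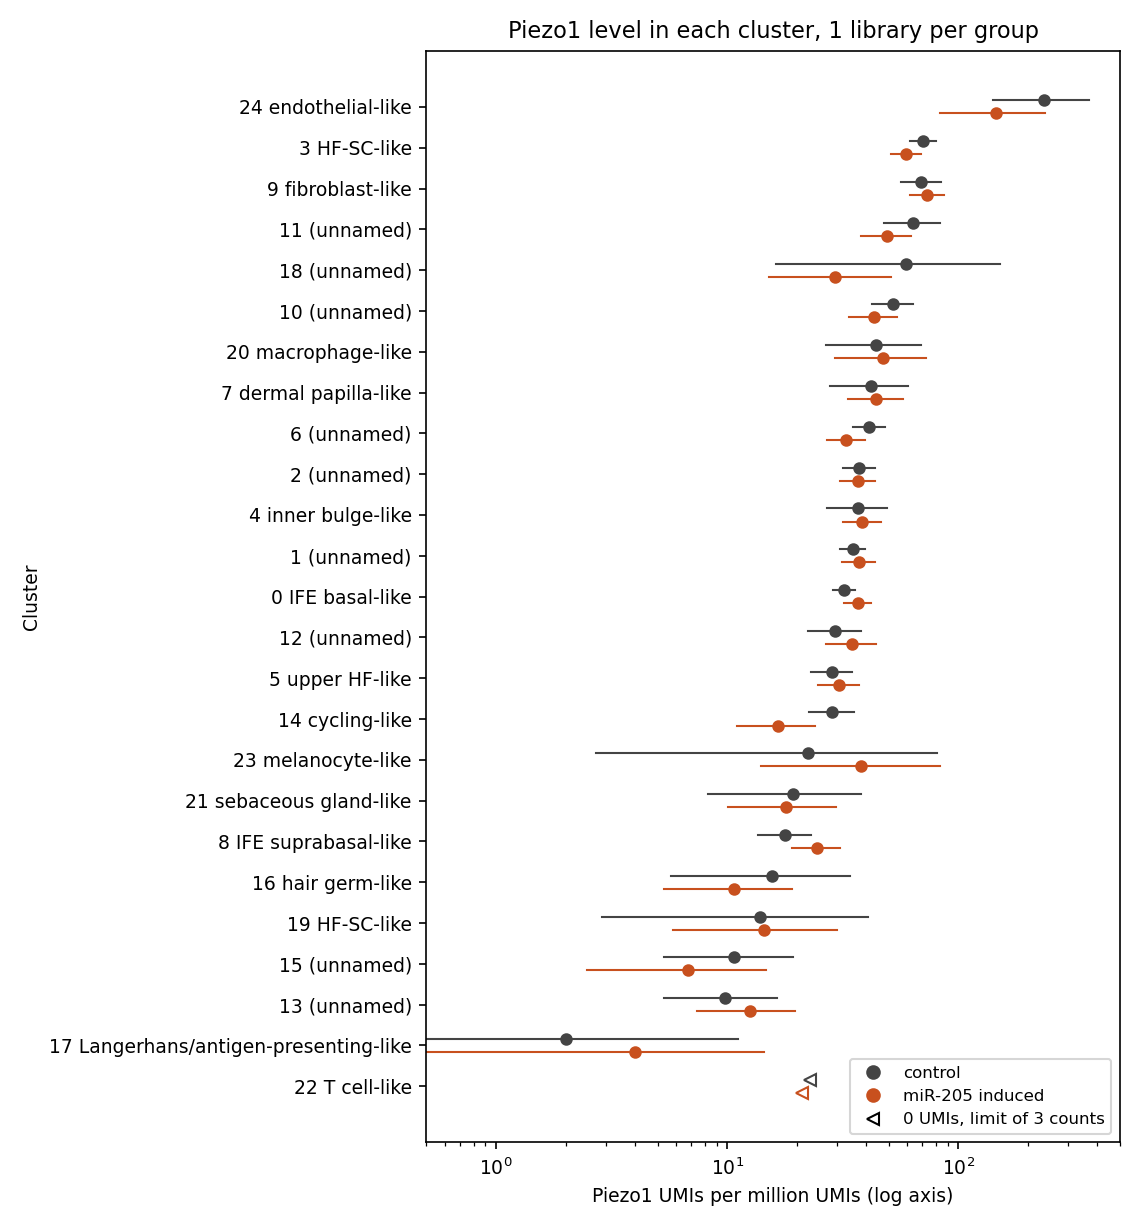
Piezo1 CPM (log axis) in each of the 25 clusters, sorted by the control level, with 1 point per library and 95% Poisson intervals. Open triangles give the level that 3 counts would allow where there were 0 UMIs. Levels ran from the endothelial-like cluster (235 and 146) through cluster 3 (70.5 and 59.5) down to cluster 17 (2.00 and 4.01).

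The order was alike in the libraries. Over the 24 clusters with at least 50 cells, Spearman's rho of the control and induced levels was 0.887. Pearson's r of log2(CPM + 1) was 0.956, with the low clusters 17 and 22, at 0 to 2 Piezo1 UMIs in a library, among the points. This is a description across clusters, which differ in depth and were integrated together. Neighbours in the order did not differ beyond counting error: of the 23 neighbouring pairs in each library, 0 had a ratio whose interval left 1 out. The order thus sets apart a high, a middle and a low part rather than single ranks. The induced level was higher in 13 of these clusters, lower in 10 and equal in 1.

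Most clusters showed no difference between the libraries beyond counting error. Of the 24 clusters, only the cycling-like cluster 14 had an interval that left 0 out. That cluster, led by Pimreg, Troap and Kif2c and with all 6 cell cycle markers raised, had 80 Piezo1 UMIs in 143 control cells (28.5 CPM, 22.6 to 35.5) and 28 in 81 induced cells (16.6 CPM, 11.02 to 23.97). The log2 ratio was −0.76 (−1.46 to −0.14), past 1.5-fold, where 8.70% of the 9136 genes tested in that cluster were at least 1.5-fold lower. The median of those genes was −0.00. The log2 ratio stayed negative in all 11 alternatives, from −1.27 to −0.58, and its interval left 0 out in 4 of the 8 that gave one. Without the cells of highest doublet score it was −0.58 (−1.30 to 0.07). Cells of any epithelial type in the cell cycle fall into this cluster, so a difference in its make-up and a difference within a cell type cannot be told apart. The summed level of the dissociation stress genes was also higher there in induced cells, at 8470 against 5440 CPM, and its part in the result was not tested.

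HF-SC-like cells were the population of most interest, since the study followed bulge stem cells and their hair germ progeny. Pooled, they had 236 Piezo1 UMIs in 359 control cells (67.0 CPM, 58.7 to 76.1) and 186 in 351 induced cells (53.3 CPM, 45.9 to 61.5). The log2 ratio was −0.33 (−0.62 to −0.05), below 1.5-fold. The pool was made of clusters of unequal level. Cluster 3 had 233 and 179 of the UMIs. The other HF-SC-like cluster, 19, was led by Shisa2, Scrg1 and Tbx1 and had 3 UMIs in 30 control cells (13.9 CPM, 2.87 to 40.7) and 7 in 60 induced cells (14.5 CPM, 5.83 to 29.9). Cluster 3 was at 4.35-fold the level of cluster 19 in control (log2 2.12, 0.77 to 4.63) and at 3.84-fold in induced cells (log2 1.94, 0.96 to 3.37).

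The low cluster took a larger share of the induced pool. Cluster 19 made up 8.36% of the HF-SC-like cells in control and 17.1% in induced. The sort and the mix can set such shares, and in the pool a difference of shares and a difference of level cannot be told apart. Within cluster 3 alone the log2 ratio was −0.24 (−0.53 to 0.04), and within cluster 19 it was −0.06 (−2.07 to 2.64). With the control library's cell shares as weights the pooled log2 ratio was −0.24. Shares moved alike: after thinning, 25.97% of control and 19.6% of induced HF-SC-like cells had a UMI (−6.39 percentage points, −12.7 to −0.039), and in cluster 3 alone the difference was −4.59 points (−11.5 to 2.40). Unthinned, 43.2% of control and 37.8% of induced cells of cluster 3 had a UMI, at median depths of 9930 and 10286 UMIs.

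The HF-SC-like ratio also moved with the mitochondrial share, a sign of cell quality. In the 112 control and 91 induced cells of cluster 3 with under 5% mitochondrial UMIs, the levels were 66.4 and 63.0 CPM (log2 −0.07, −0.57 to 0.41). In the 217 and 200 cells with 5 to 10%, they were 73.0 and 57.7 CPM (log2 −0.34, −0.70 to 0.02). The median mitochondrial share of cluster 3 was 5.46% in control and 5.52% in induced cells. The intervals overlap widely, and whether the ratios differ was not tested. The dissociation stress genes were at 16032 and 20313 CPM in cluster 3, and the 35 markers of fibroblasts, endothelium, immune cells and melanocytes summed to 215 and 194 CPM, with 11 of them at 0 in both libraries. Their part in the result was not tested.

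The same held for the clusters closest to hair germ by markers. Clusters 16 and 10 had the highest mean log2 fold over the hair germ markers, at 1.76 and 1.74. Cluster 16 was hair germ-like, with Lgr5, Cdh3, Gli1 and Lef1 raised and led by Mycn. Cluster 10 stayed unnamed. It had 3 of the 6 hair germ markers raised (Lgr5, Gli1 and Lef1), none among its top 10 genes, and the smooth muscle markers Acta2, Tagln and Myh11 scored higher in it (a mean log2 fold of 3.06, against 1.76 for hair germ, with negative folds set to 0). It was epithelial by its keratins, with Krt8 and Krt18 raised, and is given beside cluster 16 as the next closest, not as hair germ. Piezo1 was low in cluster 16, with 6 UMIs in 43 control cells (15.6 CPM, 5.73 to 34.0) and 11 in 95 induced cells (10.7 CPM, 5.34 to 19.1), and 4 of the 6 control UMIs were in 1 cell. It was higher in cluster 10, with 98 UMIs in 153 control cells (52.2 CPM, 42.4 to 63.6) and 72 in 115 induced cells (43.1 CPM, 33.7 to 54.2). The level in cluster 10 was 3.10-fold that in cluster 16 in control (log2 1.63, 0.57 to 3.22) and 3.88-fold in induced cells (log2 1.95, 1.08 to 3.07).

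Between the libraries, the log2 ratio was −0.60 (−2.10 to 1.18) in cluster 16, where it turned to 0.23 as a mean over cells and to 0.64 under 5% mitochondrial UMIs, and −0.27 (−0.74 to 0.18) in cluster 10. Pooled, these clusters gave 46.0 CPM in control and 30.7 CPM in induced cells. Their log2 ratio was −0.58 (−1.01 to −0.15), past 1.5-fold, where 8.79% of 9094 genes tested were at least 1.5-fold lower. Cluster 16 made up 21.9% of the pooled cells in control and 45.2% in induced. With the control library's cell shares as weights, the pooled log2 ratio was −0.30. In pooled cells with under 5% mitochondrial UMIs it was −0.03 (−0.996 to 0.946), from 52 control and 43 induced cells. Cluster 3 was at 1.35-fold the level of cluster 10 in control (log2 0.43, 0.09 to 0.79) and 1.38-fold in induced cells (log2 0.46, 0.06 to 0.88).

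**Figure D2:**
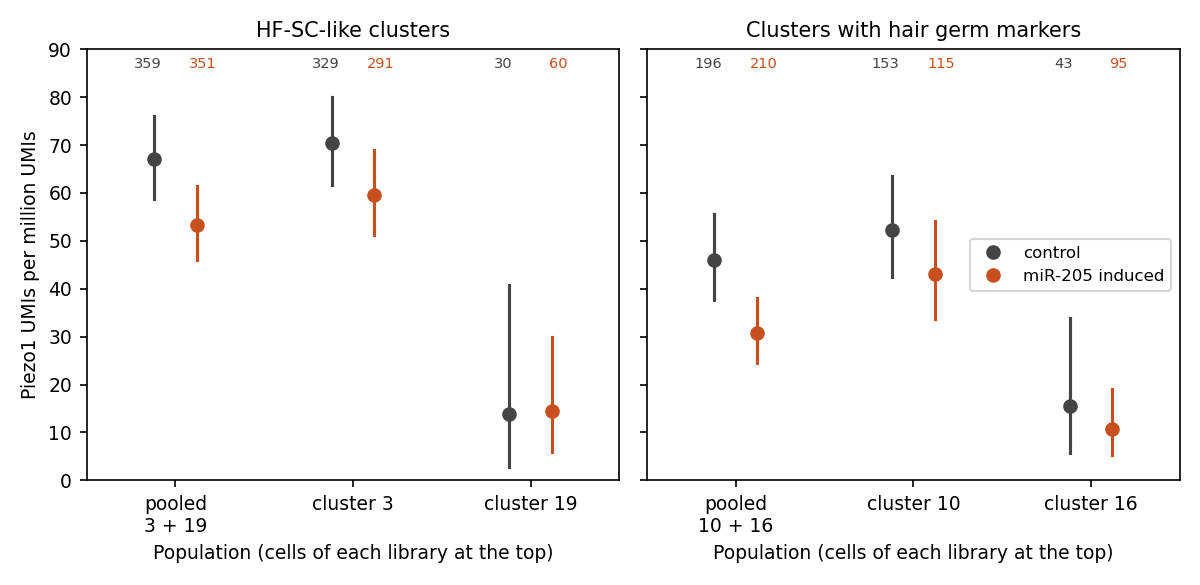
Piezo1 CPM in control (grey) and induced (orange) cells, with 95% Poisson intervals. The left panel gives HF-SC-like clusters 3 and 19 pooled and apart, the right panel clusters 10 and 16, the closest to hair germ by markers, and the numbers at the top are cells. In each panel the pooled gap is wider than the gap within the cluster of higher level, and the cluster of lower level holds more of the induced than of the control cells (60 against 30, and 95 against 43).

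Elsewhere the ratios lay on both sides of 0. The pooled epithelial clusters had 34.9 CPM in 3502 control and 33.8 CPM in 2995 induced cells (log2 −0.04, −0.15 to 0.06), and the pooled non-epithelial clusters, in which the Krt14 promoter does not drive the activator, had 51.1 CPM in 434 and 51.4 CPM in 633 cells (log2 0.01, −0.27 to 0.29). The basal-like cluster 0 had a log2 ratio of 0.20 (−0.06 to 0.45) and the suprabasal-like cluster 8 one of 0.45 (−0.06 to 0.97). Cluster 11 was at −0.38 (−0.93 to 0.18). Cluster 6, unnamed and led by cornified envelope genes such as Flg and Sprr4, was at −0.33 (−0.70 to 0.03), but 1 control cell alone held 21 of its 157 Piezo1 UMIs. Without the cell with most UMIs in each library, its log2 ratio was −0.20 (−0.58 to 0.18). Fibroblast-like cells were at 0.08 (−0.29 to 0.46), dermal papilla-like cells at 0.06 (−0.61 to 0.79) and inner bulge-like cells at 0.06 (−0.44 to 0.59). The endothelial-like cluster was at −0.68 (−1.74 to 0.35).

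**Figure D3:**
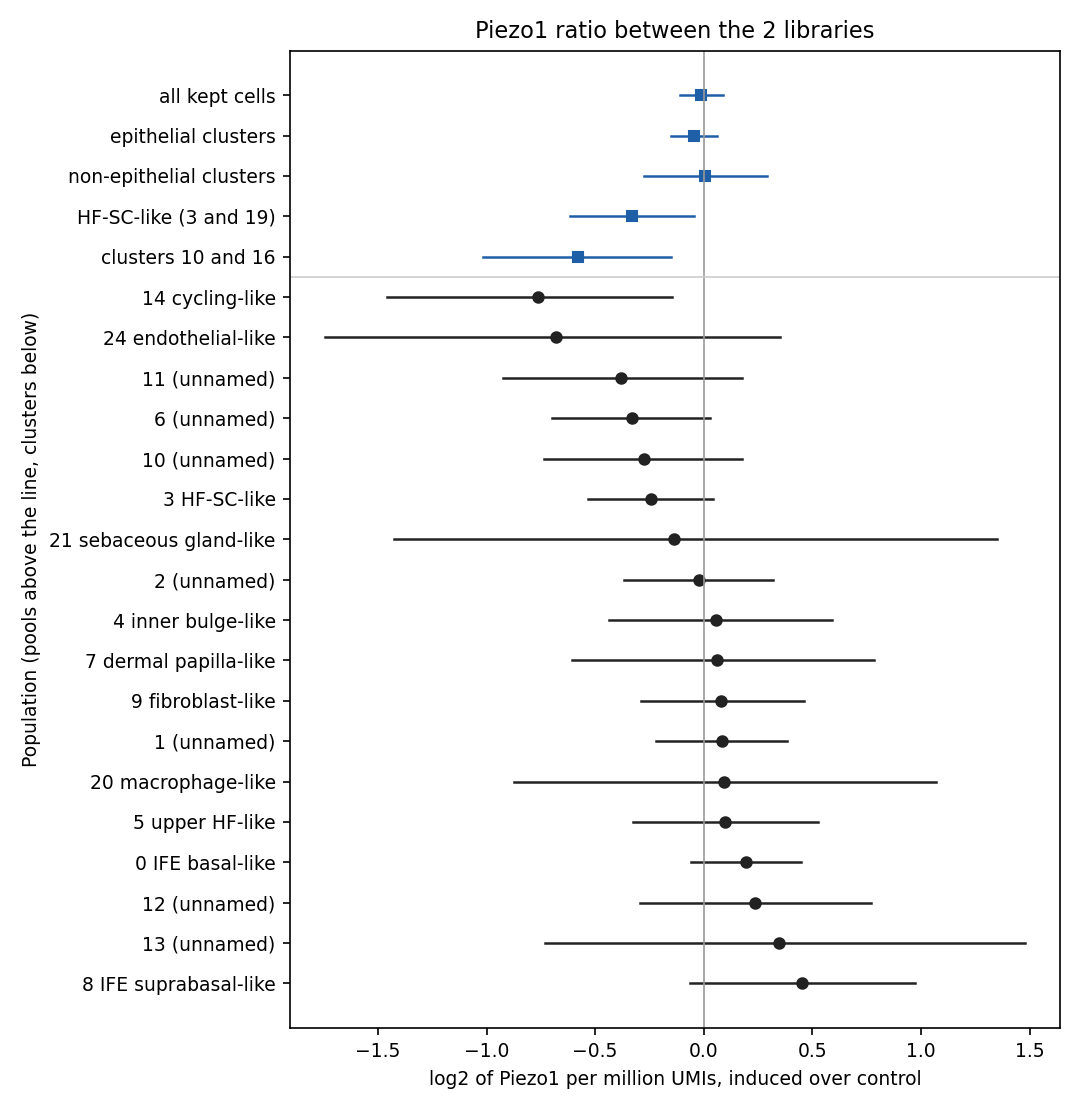
log2 ratio of the Piezo1 level, induced over control, with 95% counting intervals, for pools of cells (blue squares) and for the clusters with at least 20 Piezo1 UMIs (black circles, sorted). Among the clusters, the interval of the cycling-like cluster 14 alone lies off 0, at −0.76.

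Piezo1 lies beside another gene at its 3′ end. Ctu2, which encodes a tRNA thiolation subunit, spans chr8:122476068-122483092 on the plus strand, so 1395 bases are shared with Piezo1 on opposite strands. The sources used here do not say whether the counting used strand, and without strand the reads of the overlap cannot be told apart. The genes' levels had different patterns. Ctu2 was at 61.1 CPM in control and 53.8 CPM in induced cells of the basal-like cluster 0, and at 6.60 and 14.9 CPM in the fibroblast-like cluster 9, where Piezo1 was high. In cluster 3 Ctu2 was at 32.4 and 27.6 CPM, a log2 ratio of −0.23 (−0.66 to 0.20), and over all kept cells its log2 ratio was −0.22 (−0.30 to −0.14).

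The only paralogue was nearly absent. For Piezo2 (ENSMUSG00000041482) there were 20 UMIs in the control library and 19 in the induced one, with none in cluster 3 or cluster 19 of either library. Of these, 7 and 6 were in dermal papilla-like cells and 8 and 6 in fibroblast-like cells, and no epithelial cluster held more than 2 in a library.

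The genes whose levels followed Piezo1 most closely were named by a fixed rule, from 8865 other genes with at least 500 UMIs, by the smaller of the Pearson correlations over the 24 clusters in each library. They were Hivep3, Mier3, Yars, Trib1, Pik3ca, Fbxw11, Eif1a, Hipk3, Sgms2 and Mir17hg. Hivep3, a zinc finger transcription factor gene, had an r of 0.789 in control and 0.784 in induced cells, and Mir17hg, the host of the miR-17 cluster, an r of 0.754 and 0.726. Pik3ca, the catalytic subunit of phosphoinositide 3-kinase, had an r of 0.751 and 0.767. Hivep3 was at 99.8 and 80.5 CPM in cluster 3, at 27.0 and 33.3 CPM in the fibroblast-like cluster 9 and at 10.01 and 12.02 CPM in cluster 17. It was thus high with Piezo1 in cluster 3 and low with it in cluster 17, but not high in cluster 9, where Piezo1 was. Correlations of the same size also occurred with the opposite sign, such as −0.789 and −0.791 for Cops4 and −0.805 and −0.788 for Ppm1g. The points share depth and library, several hold under 20 Piezo1 UMIs, and the values are a description.

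Companion genes of the channel were compared in HF-SC-like cells, where 6.73% of 9587 genes tested were at least 1.5-fold lower and 13.2% at least 1.5-fold higher in induced cells, with a median log2 ratio of 0.09, and 40.4% of the genes had a negative log2 ratio. In the hair germ-like cluster 16 the shares were 12.5% and 15.5% of 6306 genes, with a median of 0.01, at wider counting error. There 49.1% of the genes had a negative log2 ratio. A gene needed at least 20 UMIs over both libraries in the population.

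Among the modulators and partners, 5 of 8 genes were tested in HF-SC-like cells, with a median of −0.07, 0 of them 1.5-fold lower and 1 higher. Cdh1, the epithelial cadherin, had 249 CPM in control and 186 CPM in induced cells (log2 −0.42, −0.57 to −0.27), and Atp2a2, the SERCA pump of the endoplasmic reticulum, 146 and 133 CPM (log2 −0.14, −0.32 to 0.05). Stom, a membrane scaffold protein, was the gene past 1.5-fold, from 29 to 44 UMIs (log2 0.61, −0.09 to 1.34). In cluster 3 alone Stom fell short of that, at 0.52 (−0.26 to 1.32). Ctnnb1, beta-catenin, was at 344 CPM in both (log2 0.00, −0.11 to 0.12). In cluster 16 the median was −0.41 over 5 genes. Cdh1 was at −0.51 (−1.06 to 0.06) there and Mdfi, a MyoD family inhibitor that binds PIEZO channels, at −0.64 (−1.70 to 0.55).

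Of 14 other channels linked to stretch, swelling or flow, 11 were tested in HF-SC-like cells. Of these, 3 had a negative log2 ratio, beside 40.4% of all genes, and 8 a positive one. There were 2 at least 1.5-fold higher, beside 13.2% of all genes, and 1 lower, and the median was 0.23. Kcnk2, the stretch-gated potassium channel TREK-1, had 92.6 CPM in control and 142 CPM in induced cells (log2 0.61, 0.41 to 0.82). Tmem120a, a membrane protein also called TACAN, had 5.68 and 10.9 CPM (log2 0.92, 0.12 to 1.80). Pkd2, a polycystin channel, was at −0.14 (−0.75 to 0.47). Trpc1, a non-selective cation channel, was lower on 19 and 7 UMIs (log2 −1.37, −2.92 to −0.11). In cluster 3 alone Trpc1 had 16 and 2 UMIs, too few to be tested. In cluster 16, 7 were tested, 0 were past 1.5-fold, and the median was 0.11. There Tmem87a was at 0.41 (−0.96 to 2.28), Tmem63b at 0.21 (−0.76 to 1.38), Lrrc8a, the swelling-activated anion channel, at −0.31 (−1.47 to 1.05) and Tmem63a, a high-threshold stretch channel, at −0.36 (−1.17 to 0.53).

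The calcium effectors had a median of −0.01 over 14 of 16 genes in HF-SC-like cells, with 7 log2 ratios on either side of 0. Panx1, a pore that releases ATP, had 11.9 CPM in control and 4.30 CPM in induced cells (log2 −1.44, −2.43 to −0.59). Nfatc1, a calcineurin-dependent transcription factor of bulge stem cells, had 139 and 108 CPM (log2 −0.36, −0.56 to −0.17). Capn1, a calpain protease, had 49.1 and 73.1 CPM (log2 0.57, 0.29 to 0.86), and Camk2g, a calmodulin-dependent kinase, 11.6 and 17.8 CPM (log2 0.60, 0.02 to 1.22). Panx1 and Camk2g were the ones past 1.5-fold. In cluster 16 the median was −0.06 over 13 genes. Calm2, a calmodulin gene, was the one past 1.5-fold there, with 692 CPM in control and 411 CPM in induced cells (log2 −0.75, −0.98 to −0.53). Ppp3ca, the calcineurin catalytic subunit, was at −0.47 (−0.90 to −0.01), and its regulatory subunit Ppp3r1 was at 0.46 on 13 and 49 UMIs. Camk2d, a calmodulin-dependent kinase, was at 0.46 (−1.05 to 2.62) on 4 and 16 UMIs.

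Stores and pumps had a median of −0.07 over 10 of 11 genes in HF-SC-like cells, with 0 past 1.5-fold. Stim2, a sensor of store calcium, was at −0.25 (−0.71 to 0.19) and Atp2b4, a plasma membrane calcium pump, at −0.23 (−0.48 to 0.01). Itpr3, an inositol trisphosphate receptor, was at 0.09 (−0.12 to 0.30) and Orai3, a store-operated channel, at 0.23 (−0.98 to 1.48). In cluster 16, 8 of the 9 tested had a negative log2 ratio, beside 49.1% of all genes there, with a median of −0.41. Itpr3 was at −0.67 (−1.49 to 0.22), Stim2 at −0.57 (−1.96 to 1.04), Atp2b4 at −0.01 (−0.89 to 1.02) and Orai2 at 1.62 (−0.14 to 5.04) on 2 and 20 UMIs.

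The mechanosensors at junctions and adhesions had 4 of 11 genes at least 1.5-fold lower and 0 higher in induced HF-SC-like cells, and a median of −0.23. Vcl, vinculin, had 130 CPM in control and 69.6 CPM in induced cells (log2 −0.90, −1.13 to −0.68), and Fermt2, kindlin-2, 34.6 and 22.3 CPM (log2 −0.63, −1.06 to −0.21). The other lower ones were Zyx, zyxin (log2 −0.62, −0.77 to −0.48), and Flna, filamin A (log2 −0.59, −0.80 to −0.37). Itgb1, the integrin beta 1 chain, lay just short of 1.5-fold (log2 −0.58, −0.70 to −0.47). Zyx and Flna, which the naming rule does not cover, were named after their values were seen. Fermt1, the keratinocyte kindlin, was at 0.37 (0.07 to 0.68) and Pxn, paxillin, at 0.15 (−0.09 to 0.39). In cluster 16 the list was split 5 to 5 with a median of −0.02. Itgb1 was at −0.37 (−0.81 to 0.09) and Pxn at 0.46. Fermt2 was past 1.5-fold in both populations, but in cluster 16 it was higher, on 5 and 45 UMIs (log2 1.63, 0.42 to 3.44).

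The other targets that the study's text names were chosen by the study from its capture of miR-205 targets and other RNA-seq, which are not analysed here, and these libraries were known when the list was taken up, so their direction is no independent evidence. In HF-SC-like cells all 5 had negative log2 ratios, as they did in cluster 16, with medians of −0.43 and −0.40, beside 40.4% and 49.1% of all genes. In cluster 10, 4 of the 5 were negative, with a median of −0.10. Over all kept cells Actn1 was at 0.16 (0.11 to 0.21). Actb, beta-actin, was the one past 1.5-fold in HF-SC-like cells, with 9059 CPM in control and 6025 CPM in induced cells (log2 −0.59, −0.61 to −0.56). In cluster 3 alone it fell short of that, at −0.55. In the pool Actn4, an actinin crosslinker, was at −0.53, Rock2, a kinase of myosin contractility, at −0.43, Ctnna1, alpha-catenin, at −0.32 and Actn1 at −0.20. Set beside them, Piezo1 at −0.33 in the HF-SC-like pool lay between Rock2 and Ctnna1, and in cluster 3 alone, at −0.24, between Ctnna1 (−0.28) and Actn1 (−0.18). The interval of Piezo1 in the pool (−0.62 to −0.05) held the log2 ratios of all 5, so its place among them is not resolved. Of all genes tested, 15.2% lay lower than Piezo1 in the pool and 21.9% in cluster 3. Within cluster 16 Ctnna1 was at −0.58 (−1.01 to −0.13), Actb at −0.47 (−0.57 to −0.37), Actn1 at −0.40 (−0.81 to 0.02), Rock2 at −0.35 (−0.78 to 0.11) and Actn4 at −0.28 (−0.67 to 0.13).

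**Figure D4:**
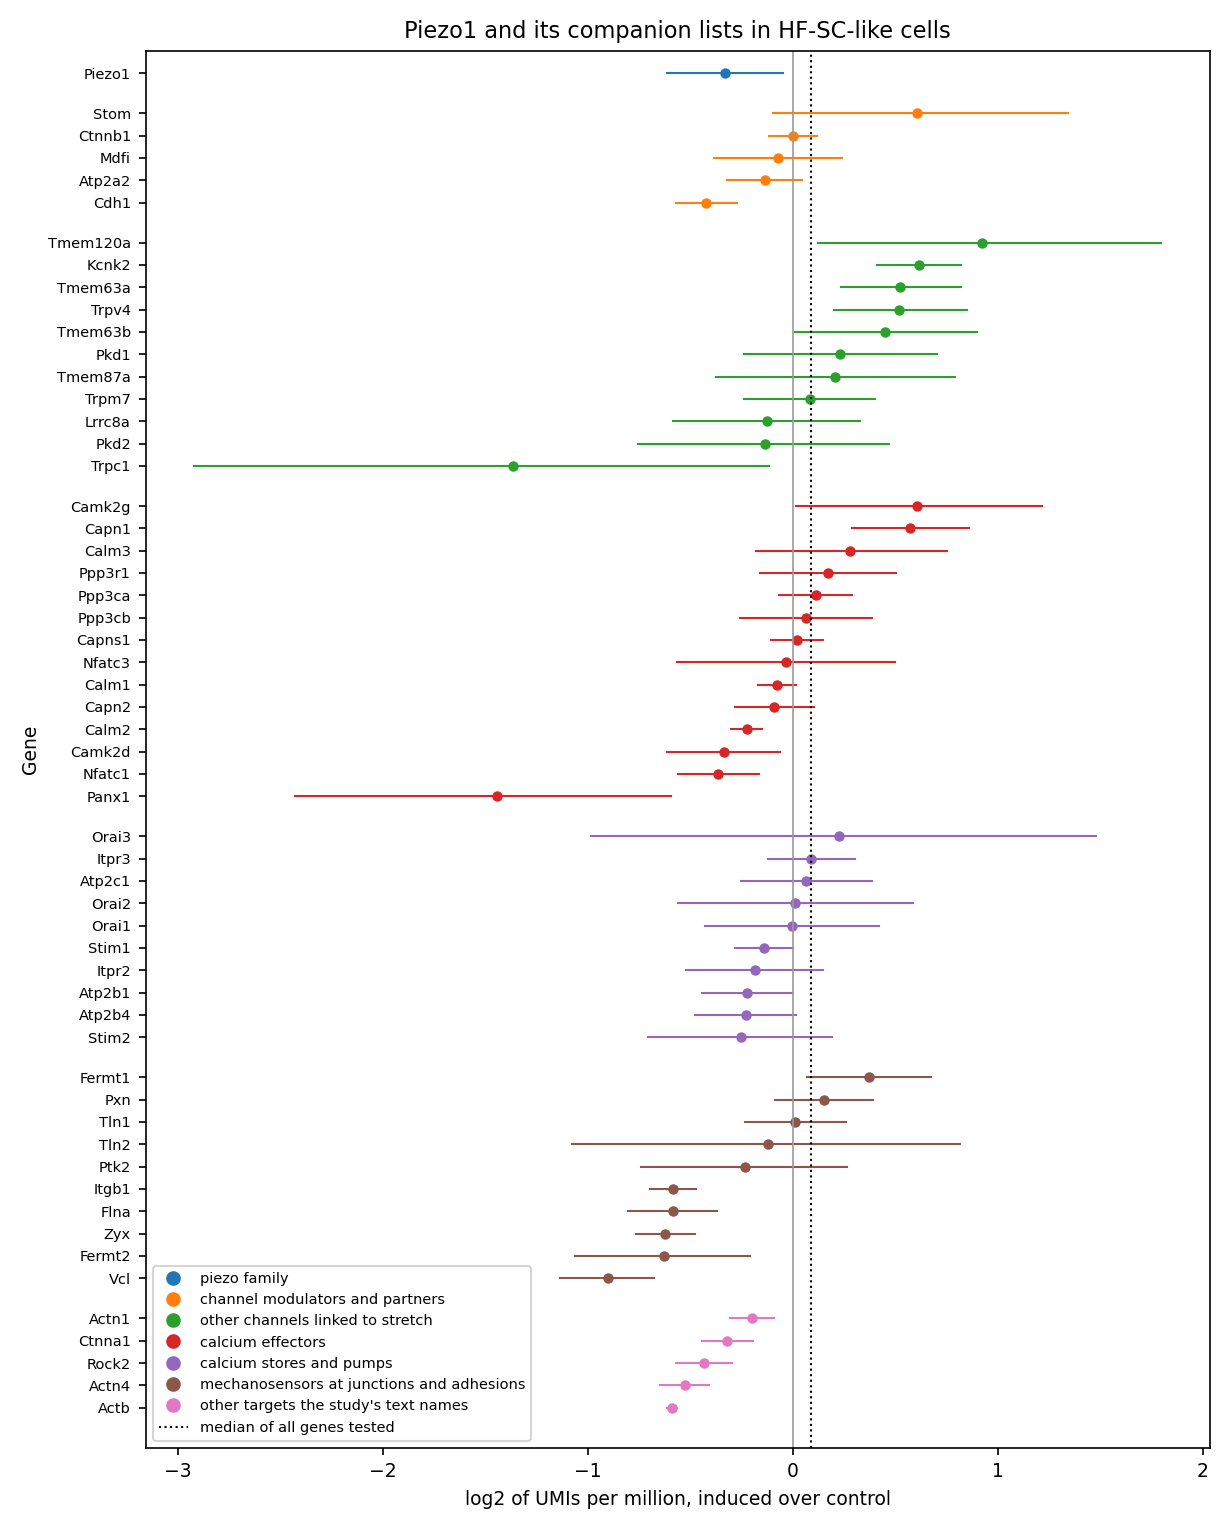
log2 ratio of CPM, induced over control, in HF-SC-like cells for Piezo1 and the tested genes of each companion list that are reported here, with 95% counting intervals. The dotted line is the median of all genes tested (0.09). Piezo1 (top) is at −0.33, the 5 other targets (bottom group) lie left of 0, and the other channels (green) lie on both sides of it, from −1.37 to 0.92.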

How the data were processed

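Cells were sorted, barcoded and counted by the authors, who used Cell Ranger (version 3.0.1 per the file headers) on mm10. The deposited values are raw UMI counts per gene and cell. The gene annotation, and whether strand was used, are not stated in the sources read here. The study filtered cells in Seurat 3.0, and the same limits (200 to 5000 genes and under 10% mitochondrial UMIs) kept 3936 of 4545 control and 3628 of 4264 induced barcodes, against about 5000 targeted. Library totals were 55465594 and 49733560 UMIs.

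Libraries were integrated and clustered in Seurat with 2000 variable genes, 30 dimensions and resolution 0.8, leaving out the 68 genes of the companion lists and Ctu2. A cluster was named when at least 3 markers, and 50% of a class's markers, had 20 or more UMIs and 2-fold enrichment, when its mean log2 fold led the next class by 1.0 or more, and when its leading genes, keratins and depth did not go against it. Scrublet marked 4 and 5 doublets on its own threshold, which is too few to have worked. No cells were removed for it, and an alternative left out 165 and 145 barcodes.

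Counts were summed per population. Ratios added 0.5 to both counts and have exact conditional binomial intervals, levels exact Poisson intervals, shares Clopper-Pearson intervals and differences of shares Newcombe intervals, all at 95%. Code was tested on simulated data. Named genes were Piezo1 and Piezo2, in each list the 2 highest and 2 lowest log2 ratios in both populations and any gene past 1.5-fold in both, the study's targets, and the 10 genes most like Piezo1. Of the genes so named, 1 is counted in its list but not reported here. Alternatives changed scaling, thinning, filters, doublets and clustering. The members, lists and markers were chosen with earlier results of these data known.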

Additional observations from a re-analysis of the deposited data

How the results depend on the processing

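No paired analysis was possible because each group has 1 library. Of 298 values over 53 results recomputed under other settings, 285 stayed within the counting interval, or within 1.5 times for counts and ranks, and 0 turned the direction of a value whose interval left 0 out. Over all kept cells a median-of-ratios size factor gave Piezo1 a log2 ratio of −0.11, and the 10 alternatives ran from −0.11 to 0.08. In HF-SC-like cells the 13 alternatives ran from −0.56 (thinned) to −0.09 (under 5% mitochondrial UMIs, interval −0.58 to 0.40). Of the 8 alternative intervals of this pool, 7 left 0 out, and of the 5 for clusters 10 and 16 pooled, 4 did. In cluster 3 alone 0 of the 5 alternative intervals left 0 out. In the hair germ-like cluster 16, thinning gave −2.11 and under 5% mitochondrial UMIs 0.64, and both rest on very few UMIs. There, under 5% mitochondrial UMIs moved the median of the calcium effectors to −0.54 and that of the mechanosensors to −0.37. Cluster 3 had rank 3, not rank 1, in the control order by thinned share. With at least 100 UMIs per gene, the share of genes 1.5-fold lower was 1.66% in all kept cells and 6.31% in cluster 16, and the share 1.5-fold higher was 7.00% in HF-SC-like cells against 8.13% for cluster 16, in each case with fewer genes of low counts tested. In the suprabasal-like class the log2 ratio turned to −0.31 with clusters at resolution 1.2, and in inner bulge-like cells it was −0.94 when cells were put in a class one by one by marker UMIs. The cause was not tested. Pooling clusters 10 and 16, their reweighting and cluster 3 alone were chosen after seeing the data. With 1 mouse per group, a difference between mice and a difference by induction cannot be told apart.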

Other observations

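Trpv4, a calcium-permeable channel that responds to swelling and warmth, was high with Piezo1 in cluster 3 but was much more restricted. Over the 24 clusters its Pearson r with the Piezo1 level was only 0.246 in control and 0.294 in induced cells. Cluster 3 held 123 of its 207 UMIs in control and 154 of its 303 in induced cells, at 37.2 and 51.2 CPM, and it was among the leading genes of that cluster. In the basal-like cluster 0 it was at 1.01 and 0.485 CPM. In fibroblast-like cells, which were high in Piezo1, it was at 1.32 and 1.54 CPM. Cluster 19 had 65.0 and 85.0 CPM of Trpv4 beside 13.9 and 14.5 CPM of Piezo1, so that among the HF-SC-like clusters Trpv4 was not low where Piezo1 was. The endothelial-like cluster had 12 and 8 Trpv4 UMIs. Trpv4 was chosen for this paragraph after its values were seen.

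Of the listed genes, the plasma membrane calcium pump gene Atp2b4 followed the Piezo1 level over the 24 clusters, with a Pearson r of 0.728 in control and 0.725 in induced cells, and the store pump gene Atp2a2 had 0.875 and 0.625. Orai1, a store-operated calcium channel gene, had −0.397 and −0.389. These are descriptions across clusters that share libraries and differ in depth.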
